A study of Gallus gallus with 6 samples.

Results

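Genes of DNA replication, cell cycle control and mitosis were followed in wounded and uninjured chorioallantoic membrane (CAM), the vascularised membrane under the shell of the chick egg. The members were 50 genes chosen by name: 17 of DNA replication, 11 of cell cycle control and 22 of mitosis. A gene was measured where a probe set of the array was annotated with its symbol alone, which held for 45 of the 50, with 89 probe sets, among 13009 genes named in this way on the array. MCM4, CDC6, CDK2, CCNB2 and AURKA were not matched by symbol and are not analysed here.

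The tissue came from Brown Leghorn embryos grown out of the shell. After 10 days of culture the CAM was cut superficially with a scalpel, its epithelium was scraped away and a nylon grid was laid on the wound. The wound, whose granulation tissue fills the cut area, and uninjured control CAM of the same eggs were excised 6 days later. RNA of 3 wounds and 3 controls gave 6 Affymetrix chicken GeneChips. No agent or allele distinguished the groups. RNA was taken from excised tissue of mixed cell types, so that more dividing cells and more RNA per dividing cell cannot be told apart. The values are log2 intensities, 1 for each probe set (a group of short probes for a transcript). The labels name RMA (robust multi-array averaging), a method that removes background and is meant to align the distributions of the arrays. A difference of 1 on this log2 scale is a 2-fold change. The distributions were not fully aligned, as quantile normalization of the deposited values lowered the wound minus control difference of PCNA from 0.60 to 0.29. For a gene with several probe sets the one with the highest mean over the 6 arrays is used. Of the 89 probe sets 21 lay at or under the median level of all probe sets, where differences are small. Other probe sets are given beside most members that have them, though not all of those near or under that level. Levels of different probe sets are not comparable with each other.

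A cell that divides copies its DNA once. The MCM helicase is loaded at origins and opens the DNA together with CDC45 and the GINS complex, primase and polymerase alpha start each strand, and the replication factor C (RFC) complex loads the sliding clamp PCNA that holds the polymerase on its template. Ribonucleotide reductase and thymidylate synthase supply the nucleotides. D and E cyclins, E2F factors and inhibitors such as CDKN1B govern entry into this phase. Mitosis follows, driven by CDK1 with B cyclins: condensins pack the chromosomes, kinetochores bind them to the spindle, a checkpoint holds the cell until all are attached, and anillin and a kinesin help the daughter cells part. In healing tissue many replication and mitosis genes serve as markers of proliferating cells, whereas inhibitors such as CDKN1B are also found in quiescent cells.

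Most members had a higher mean in the wound, by small amounts, and almost none passed the test across all probe sets. Of the 45 members 36 had a higher mean in wounds, with a median difference of 0.30. After quantile normalization of the arrays this number was 30. Wounds and controls were compared with limma, which borrows the spread of all probe sets to steady that of each one, and p-values were adjusted by the Benjamini-Hochberg method over all 38439 probe sets. At an adjusted p under 0.05, 2.04% of all probe sets were higher in wounds and 0.304% lower. Of the members only NDC80, a kinetochore protein, was higher on its brightest probe set, and 0 were lower. At an unadjusted p under 0.05, 12 members were higher and 1 was lower, but the share of all probe sets at this threshold was not counted. All 3 wounds lay above all 3 controls in 15 of 45 members (33.3%), against 13.7% of all probe sets, and below them in 1 member, against 6.12%. Dim probe sets differ little between any arrays. The 19219 probe sets whose mean lay above the median of 3.05 form a group that 43 of the 45 members belong to. In this group the wounds lay above all controls in 22.6%, 56.7% had a higher mean in wounds and the median difference was 0.05. The group was not matched to the members by level, here or below, so its shares are only a rough background.

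**Figure D1:**
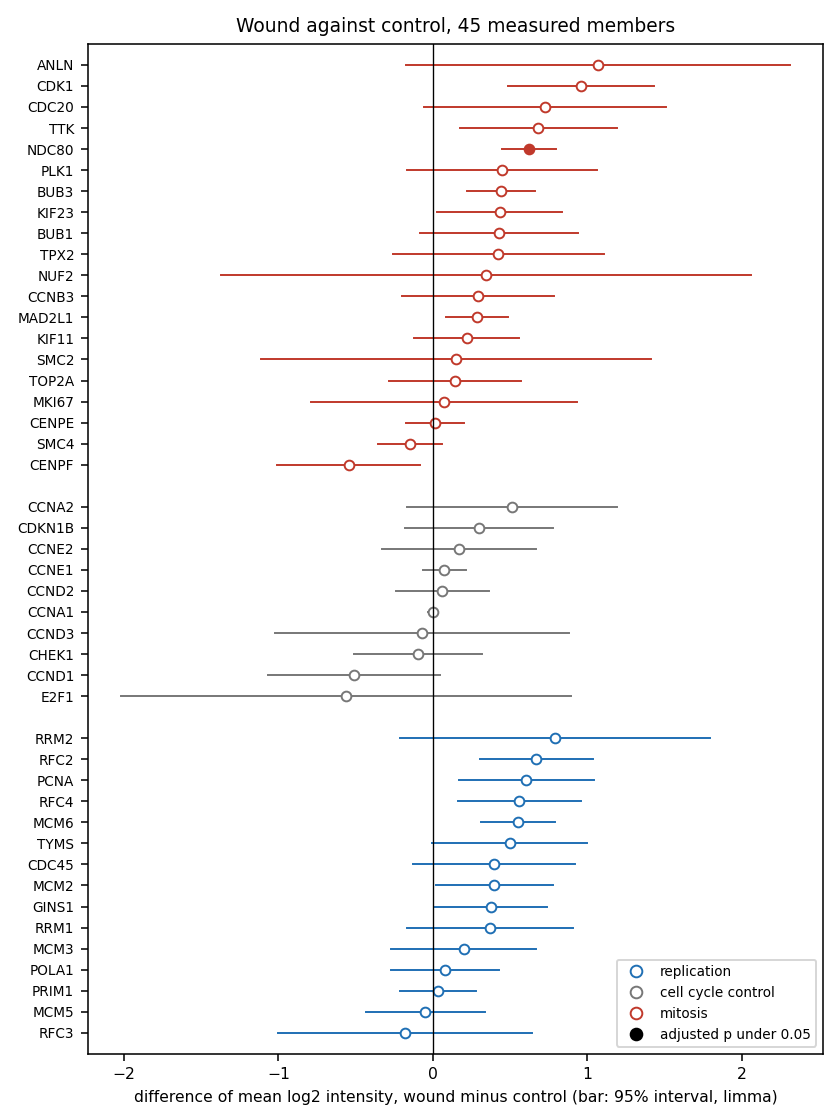
Difference of mean log2 intensity, wound minus control, for the 45 measured members, by class. Points are the differences (3 arrays a group) and bars the 95% intervals of limma. NDC80, the filled point, was the only member past an adjusted p of 0.05, and replication and mitosis genes lay mostly to the right of 0 where cell cycle control genes spread to both sides.

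Replication and mitosis genes were displaced alike, whereas the cell cycle control genes were not displaced on balance. The median difference was 0.40 in the 15 replication genes, 0.39 in the 20 mitosis genes and 0.03 in the 10 control genes. Above 0 lay 13 replication genes, 18 mitosis genes and 5 control genes. The difference between the classes was not tested. After quantile normalization the medians were 0.31, 0.24 and -0.09. With the mean of a gene's probe sets in place of the brightest, they were 0.20, 0.29 and 0.02. The mean level of the replication genes was 5.88, 6.10 and 5.80 on control arrays 1, 2 and 3 and 6.24, 6.36 and 6.23 on wound arrays 1, 2 and 3. Every wound array lay above every control array. For mitosis genes the controls stood at 6.01, 6.29 and 5.89 and the wounds at 6.33, 6.46 and 6.46, again without overlap. Control genes gave 6.34, 6.65 and 6.26 in controls and 6.17, 6.68 and 6.36 in wounds. These overlapped, and array 2 was the highest of each group.

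Wound and control came from the same eggs, and equal replicate numbers behaved as pairs. Between arrays of equal number the replication mean was higher in the wound by 0.36, 0.27 and 0.43, and the mitosis mean by 0.32, 0.17 and 0.57. In the control genes these differences were -0.17, 0.04 and 0.09. The wound exceeded its control in all 3 pairs in 10 replication genes, 13 mitosis genes and 3 control genes, 26 of 45 in all (57.8%), against 23.2% of all probe sets and 35.7% of those above the median level. It was below in all 3 pairs in 4 members, E2F1, CCND1, CENPF and SMC4, against 15.9% of all probe sets. Array 2 was the highest of both groups in 23 of 45 members (51.1%), against 37.1% of all probe sets and 22.3% of those above the median level. The same was seen in 7 of 10 measured erythroid markers, whose mean level was 10.01, 10.62 and 10.19 in controls, from which the wounds of equal number differed by -0.57, 0.38 and -0.35. The part of blood cells in the members' values was not tested.

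**Figure D2:**
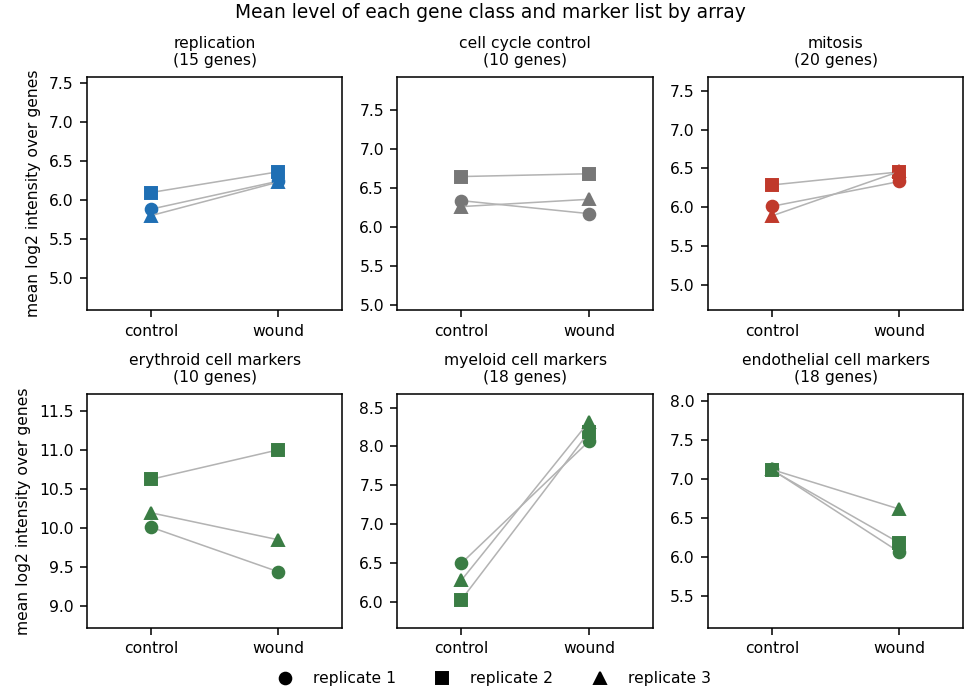
Mean log2 intensity over the genes of a class or marker list on each array, with arrays of equal replicate number joined. Wounds lie above controls without overlap for replication, mitosis and myeloid marker genes, below them for endothelial markers, and overlap for control genes and erythroid markers, where array 2 is the highest of each group.

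Mean levels of myeloid, endothelial, stromal and epithelial markers differed between the groups by more than those of the member classes. Of 18 measured myeloid markers 12 (66.7%) were higher in wounds and 0 lower at an adjusted p under 0.05. Of all probe sets 2.04% were higher and 0.304% lower. With the replicate block 2 of the markers were higher (LY96 and CSF2RA). Most of these markers are among the genes that the study reported as higher in these same arrays, so the count is not independent of that report. The list's mean level lay between 6.03 and 6.50 in controls and between 8.07 and 8.32 in wounds. Its members did not all run this way: MRC1, a macrophage receptor, had all wounds below all controls, by -2.00 (SE 0.51, adjusted p = 0.154), as was seen after the list had been fitted. Of 18 endothelial markers 1 (EGFL7) was lower on its brightest probe set. All wounds lay below all controls in 13 (72.2%), against 6.12% of all probe sets. A second probe set of MYCT1, named after its values were seen, passed at -1.32 (SE 0.17, limma adjusted p = 0.0371, blocked 0.102). The endothelial list's mean was 7.12 on each control array against 6.06, 6.18 and 6.61 in wounds. The 16 fibroblast and smooth muscle markers had 1 lower member (TCF21). The list's means ran from 8.71 to 8.84 in controls and were 7.67, 7.46 and 8.79 in wounds. Wound 3 alone was at the level of the controls. POSTN, named after its values were seen, was the only marker of this list with a higher mean in wounds. All its wounds lay above all controls (2.65-fold, limma adjusted p = 0.327). Of 10 epithelial markers 2 were higher (EPCAM and CLDN1), with means of 8.79, 8.38 and 7.98 in controls and 9.34, 8.97 and 8.86 in wounds. KRT5, named after its values were seen, had the largest difference, 3.24 (SE 1.62, limma adjusted p = 0.506), and weighs on these means. The median difference of the epithelial list was 0.48. With the block EGFL7, TCF21 and EPCAM did not pass (adjusted p = 0.121, 0.0775 and 0.0541). None of 11 T cell markers passed, and 6 of these lay at or under the median level. CD3D and CD3E, named after their values were seen, had all wounds above all controls. They differed by 1.36 (SE 0.21, limma adjusted p = 0.0554) and 0.66 (SE 0.20, adjusted p = 0.226). Of the 11 markers 3 had a lower mean in wounds. The part of these cell types in the members' differences was not tested.

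In the clamp and its loader, PCNA and 2 of the loader's subunits had wounds above all controls, and none of these genes passed the test. PCNA, the sliding clamp, measured 9.08, 9.53 and 9.20 on control arrays 1, 2 and 3 and 9.92, 10.07 and 9.63 on the wound arrays. All wounds were above all controls, by 0.60 (SE 0.17, limma adjusted p = 0.189). After quantile normalization the PCNA difference was 0.29 (adjusted p = 0.597). RFC2, a small subunit of the clamp loader, measured 7.05, 7.02 and 6.60 in controls and 7.67, 7.52 and 7.49 in wounds. RFC4, a further subunit, measured 7.25, 7.26 and 6.90 in controls and 7.88, 7.73 and 7.47 in wounds. In both subunits the groups were apart, and control 3 was the lowest array. The differences were 0.67 (SE 0.14, adjusted p = 0.105) for RFC2 and 0.56 (SE 0.15, adjusted p = 0.182) for RFC4. The second probe sets of these genes, with means of 2.44 for RFC2 and 3.12 for RFC4, differed by 0.04 and -0.03. RFC3, also of the loader, behaved otherwise. Its only probe set, at a mean of 3.11 near the median of all probe sets, ranged from 2.95 to 3.36 in controls and from 2.41 to 3.52 in wounds, a difference of -0.18 (SE 0.32). Of the loader genes outside the members, RFC1, the large subunit, differed by 0.20 and RFC5 by 0.02, and neither passed.

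The helicase genes did not move as a block. MCM6 measured 5.86, 6.08 and 6.19 in controls and 6.57, 6.59 and 6.63 in wounds. Its wound arrays were tightly grouped above all controls, with a difference of 0.55 (SE 0.09), the smallest adjusted p of the replication genes, 0.0653. MCM2 measured 5.71, 6.25 and 6.05 in controls and 6.41, 6.42 and 6.37 in wounds. Here too the groups were apart, by 0.40 (SE 0.15, adjusted p = 0.321), although control 2 lay just under the lowest wound, and a second probe set below the median level differed by -0.01. MCM5 gave -0.05 (SE 0.15), with a 95% interval from -0.43 to 0.34, and MCM3 gave 0.20 (SE 0.18). In each of these the groups overlapped. Of the partners of the helicase, GINS1 was apart at 0.38 (SE 0.14, adjusted p = 0.326) and CDC45 overlapped at 0.40 (SE 0.20). The remaining 3 probe sets of MCM6 lay near the median of all probe sets and differed by between -0.03 and 0.13, and those of GINS1, all below the median level, by 0.01 or less in either direction.

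Genes of nucleotide supply had a higher wound in every pair, yet overlapping groups. RRM2, the small subunit of ribonucleotide reductase whose level follows the cell cycle, measured 7.56, 7.91 and 6.74 in controls and 8.22, 8.60 and 7.76 in wounds. Wound 3 was lower than control 2, so the groups overlapped, but each wound exceeded the control of its own number, by 0.65, 0.69 and 1.03. The mean difference was 0.79 (SE 0.39, adjusted p = 0.494), and with the replicate number as a block its SE was 0.10 (adjusted p = 0.0922). RRM1, the large subunit, differed by 0.37 (SE 0.21), with 0.40 on its second probe set, and TYMS, thymidylate synthase, by 0.50 (SE 0.19, adjusted p = 0.352). At the enzymes that start the strands little was seen. POLA1, the catalytic subunit of polymerase alpha, differed by 0.08 (95% interval -0.27 to 0.43), and PRIM1, the primase, by 0.03 (-0.22 to 0.28). Both of these turned below 0 after quantile normalization.

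**Figure D3:**
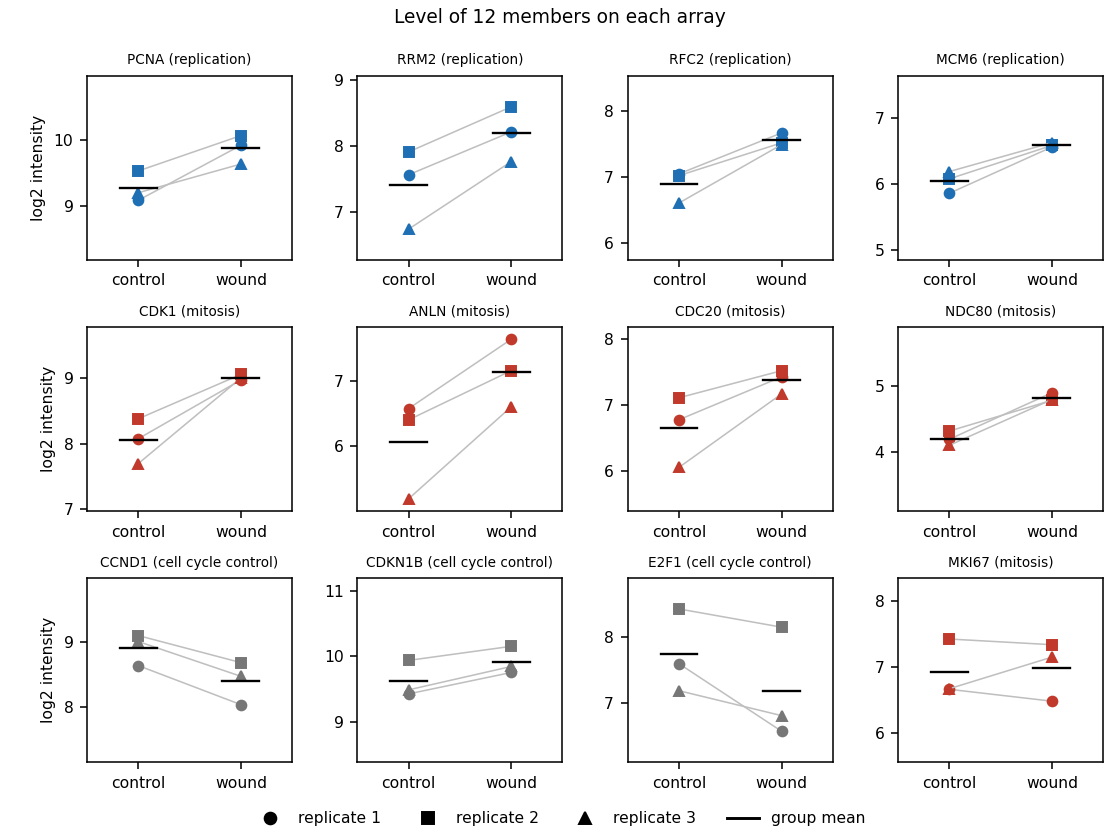
Log2 intensity of 12 members on each array, with arrays of equal replicate number joined and group means as bars. Every panel spans 2.8 log2 units. CDK1 and MCM6 have closely grouped wounds above all controls, RRM2 and CDC20 have scattered controls and a higher wound in each pair, and CCND1 and E2F1 are lower in the wound of each pair.

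In mitosis, CDK1, the kinase that drives entry into the phase, had nearly double the signal in wounds. It measured 8.08, 8.38 and 7.70 in controls and 8.97, 9.06 and 9.00 in wounds. The wounds lay within 0.1 of each other and clear of every control, a difference of 0.96 (SE 0.18, 1.94-fold, limma adjusted p = 0.0862). With other processing or an array left out, the difference of CDK1 lay between 0.70 and 1.12. Its partner CCNB3 differed by 0.29 (SE 0.19). PLK1, a kinase that acts beside it, differed by 0.45 (SE 0.24, adjusted p = 0.538) with overlapping groups, and TPX2, a spindle assembly factor, by 0.42 (SE 0.26), with 0.30 and 0.17 on its other probe sets. CDC20, which activates the ubiquitin ligase that starts anaphase, measured 6.78, 7.11 and 6.05 in controls and 7.43, 7.52 and 7.17 in wounds. Its groups were apart by a narrow margin, with the lowest value again in control 3, and the difference was 0.73 (SE 0.30, adjusted p = 0.392).

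Kinetochore genes held both the only member called and the only one whose wounds all lay below the controls. NDC80, which links the kinetochore to microtubules, measured 4.19, 4.31 and 4.10 in controls and 4.89, 4.78 and 4.79 in wounds. Wounds and controls formed tight groups that were far apart. The group means were 4.20 ± 0.11 and 4.82 ± 0.06 (SD, n = 3), a difference of 0.62 (SE 0.07, 95% interval 0.45 to 0.80, 1.54-fold), and limma's adjusted p was 0.0276. With the replicate number as a block the adjusted p was 0.0774, and the call was also lost whichever single array was left out, at adjusted p-values from 0.0531 to 0.115. A second probe set of NDC80, with a mean of 4.38, differed by 0.05 (SE 0.10, adjusted p = 0.973). NUF2, which pairs with NDC80 in its complex, varied widely within groups, from 5.02 to 6.44 in controls and from 5.03 to 7.09 in wounds. Its difference of 0.35 thus had an interval from -1.37 to 2.06. Between arrays of equal number it rose by 0.39, 0.002 and 0.65, and with the block its SE was 0.16 (adjusted p = 0.442). Its second probe set, in turn, had the groups apart at 0.51 (SE 0.12, adjusted p = 0.134), and the last differed by -0.06.

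CENPF, a large protein of the outer kinetochore, measured 4.10, 4.61 and 4.05 in controls and 3.56, 3.76 and 3.81 in wounds. All wounds were below all controls, by -0.54 (SE 0.18, adjusted p = 0.260). Its other 4 probe sets lay near the median level and differed by between -0.20 and -0.02. CENPE, the kinetochore motor, differed by 0.01 (SE 0.07), which became negative after quantile normalization, and by 0.21 on a second probe set. The values of CENPF, NUF2 and the second probe sets were singled out after they had been seen.

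The 4 measured genes of the spindle checkpoint had higher means in wounds, and none passed the test on the probe set used. All wounds lay above all controls in 3 of them, as in 22.6% of all probe sets above the median level. TTK, the kinase at the head of the checkpoint, measured 4.08, 4.37 and 3.98 in controls and 4.99, 5.01 and 4.47 in wounds. The groups were apart, though wound 3 came close to control 2, and the difference was 0.68 (SE 0.19, adjusted p = 0.198). A second TTK probe set gave a similar difference, 0.66 (SE 0.10, adjusted p = 0.0523), and the last 0.11. BUB3, which brings checkpoint kinases to the kinetochore, measured 9.35, 9.50 and 9.22 in controls and 9.83, 9.84 and 9.71 in wounds. It was higher in each wound than in any control, by 0.44 (SE 0.08, adjusted p = 0.0890). With other processing or an array left out, the BUB3 difference lay between 0.12 and 0.51, and its limma adjusted p between 0.0534 and 0.706. MAD2L1, which restrains CDC20, was apart at 0.28 (SE 0.08, adjusted p = 0.180). BUB1, a checkpoint kinase, overlapped at 0.43 (SE 0.20), with 0.42 on its second probe set.

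Genes of the last steps of division included the largest difference of all members. ANLN, anillin, a scaffold of the contractile ring, measured 6.58, 6.40 and 5.20 in controls and 7.63, 7.15 and 6.60 in wounds. The lowest wound only just exceeded the highest control, and arrays of number 3 were the lowest of each group. The difference was 1.07 (SE 0.48, 2.10-fold, adjusted p = 0.438). Another 2 of its probe sets, chosen here after their values were seen, were apart with less spread. One measured 5.49, 5.65 and 5.33 in controls and 6.32, 6.40 and 6.16 in wounds, a difference of 0.80 (SE 0.11) that passed the test (limma adjusted p = 0.0426, and 0.0417 with the replicate block). The other differed by 0.83 (SE 0.17, adjusted p = 0.104), and the last, below the median level, by 0.05. KIF23, the kinesin of the midbody, was apart at 0.43 (SE 0.16, adjusted p = 0.307), with 0.18 on a second probe set. KIF11, the motor that separates the spindle poles, overlapped at 0.22 (SE 0.13), with 0.38 on a second.

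Several genes that are used to mark dividing cells did not separate wound from control. MKI67, the Ki-67 antigen, measured 6.66, 7.43 and 6.67 in controls and 6.48, 7.34 and 7.15 in wounds. Its groups overlapped throughout. The difference was 0.07 with an interval from -0.79 to 0.93, and it turned negative after quantile normalization. MKI67 was named after its values were seen. TOP2A, topoisomerase II alpha, which untangles sister DNA, differed by 0.14 (SE 0.17), and by 0.20 on its second probe set. The condensin subunits SMC2 and SMC4 differed by 0.15 (SE 0.49) and -0.15 (SE 0.08). With intervals from -1.11 to 1.41 for SMC2 and from -0.36 to 0.06 for SMC4, only the latter was measured closely without the block. With the block the SE of SMC2 was 0.12.

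**Figure D4:**
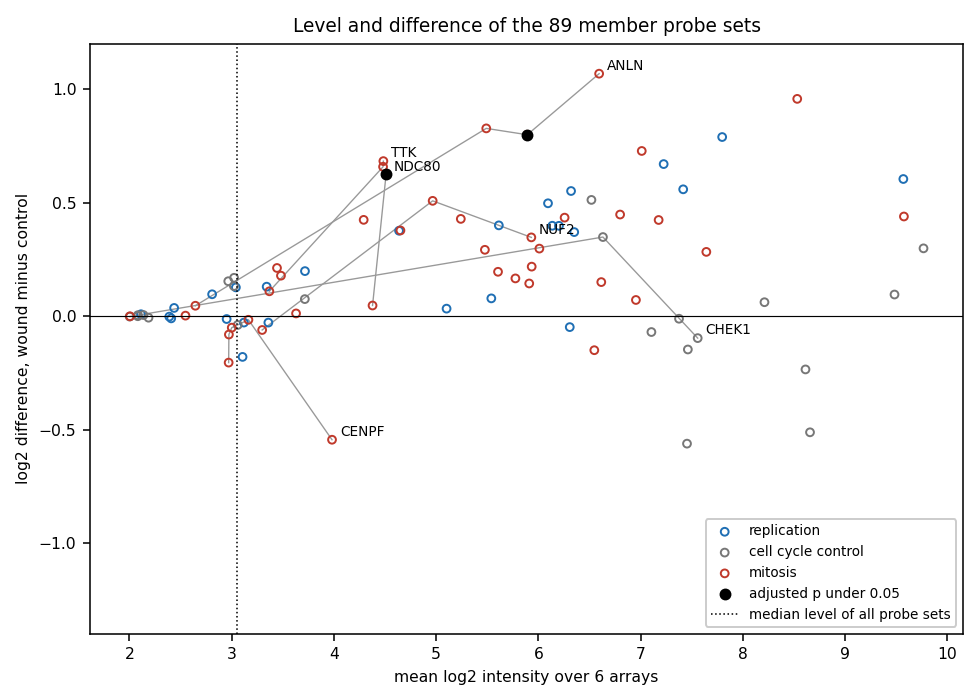
Mean log2 intensity over the 6 arrays against the wound minus control difference for the 89 member probe sets, with lines joining the probe sets of 6 genes. Filled points, 1 of NDC80 and 1 of ANLN, had an adjusted p under 0.05, and the second NDC80 probe set lies near 0.

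The cell cycle control genes went both ways and 0 of 10 passed. Without the replicate block 0 were also under an unadjusted p of 0.05. With it CCND1 and CDKN1B had an unadjusted limma p of 0.00198 and 0.00516 (adjusted p = 0.0672 and 0.0922). CCND1, cyclin D1, which carries growth signals into the cycle, measured 8.64, 9.10 and 9.01 in controls and 8.04, 8.68 and 8.48 in wounds. Groups overlapped by a small margin, between control 1 and wound 2, but the wound was lower in each pair, by -0.59, -0.41 and -0.53. The mean difference was -0.51 (SE 0.21, adjusted p = 0.398), and -0.23 on a second probe set, where the wound of pair 2 was higher by 0.08. E2F1, a transcription factor of replication genes, measured 7.59, 8.43 and 7.18 in controls and 6.57, 8.15 and 6.80 in wounds. Array 2 was far above the others in both groups, so that the mean difference of -0.56 had an SE of 0.56 (adjusted p = 0.828). Each wound was below its own control, and with the block the SE was 0.20 (adjusted p = 0.334). CDKN1B, the p27 inhibitor, which holds cells out of the cycle, measured 9.43, 9.94 and 9.49 in controls and 9.75, 10.15 and 9.84 in wounds. It was higher in the wound of each pair with overlapping groups, by 0.30 (SE 0.18, adjusted p = 0.628), and slightly lower after quantile normalization. A second CDKN1B probe set, with a mean of 9.48, differed by 0.10 and by -0.05 in pair 1. E2F1 was singled out after its values were seen.

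The remaining cyclins differed little. CCNA2, cyclin A2, which acts in replication and early mitosis, had the largest difference, 0.51 (SE 0.26, adjusted p = 0.522), most of it from number 3, where control and wound differed by 1.08 against 0.14 and 0.32. Cyclins D2 and D3 differed by 0.06 (SE 0.12) and -0.07 (SE 0.37), the first of which was negative after quantile normalization. Further probe sets of cyclin D2 differed by -0.15, lower in the wound of each pair, and by -0.01. Another of cyclin D3, below the median level, differed by 0.13. CCNE1, cyclin E1, measured 3.67, 3.69 and 3.67 in controls and 3.87, 3.70 and 3.69 in wounds. The wounds were above the controls by margins that wound 1 alone made visible, 0.08 in the mean (SE 0.05, adjusted p = 0.713). CCNE2 and CCNA1 were at or under the median level of all probe sets, with differences of 0.17 and -0.00. CHEK1, the checkpoint kinase of stalled replication, differed by -0.10 (SE 0.16) on its brightest probe set and by 0.35 (SE 0.13, adjusted p = 0.348) on another, and both overlapped.

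Other genes of the same pathways, listed by function, also had higher means in wounds more often than lower ones, but the order of the classes differed. Of 180 such genes 148 were measured, and 116 of these had a higher mean in wounds, with a median difference of 0.20. Among all probe sets above the median level 56.7% had a higher mean in wounds. By class, the medians were 0.15 over 42 replication genes, 0.30 over 36 control genes and 0.19 over 70 mitosis genes, so that the control class had the highest median here and the lowest among the members. Wounds lay above all controls in 50 (33.8%), against 22.6% of all probe sets above the median level. The test passed 7 (4.73%) as higher and 1 (0.676%) as lower (limma, adjusted p under 0.05), shares near the 4.01% and 0.557% of all probe sets above the median level. With the replicate block the counts were 3 and 1, against 270 and 45 over all probe sets. Of the 7 only CCNF was among these 3, and the other 2 were LIN9 and E2F6, whose adjusted p without the block was 0.0922 and 0.352. After quantile normalization 0 were higher and 1 was lower, against 121 and 56 over all probe sets. Without control 3 there were 0 and 0, against 22 and 10 over all probe sets. Leaving out control 1, control 2, wound 1 or wound 2 gave 1 and 1 each time, and leaving out wound 3 gave 7 and 2. In the same order, the calls over all probe sets were 139, 41, 353, 350 and 790 higher. Those lower were 40, 20, 37, 43 and 421.

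CDKN1A, the p21 inhibitor, which stops the cycle under stress or at differentiation, gave the largest fold among these genes. It measured 4.90, 4.62 and 4.44 in controls and 5.85, 5.76 and 5.65 in wounds. No control came near a wound, and the difference was 1.10 (SE 0.13, 2.15-fold, adjusted p = 0.0350, blocked 0.0524). BTG1, an antiproliferative factor, rose by 0.45 (SE 0.05, adjusted p = 0.0301, blocked 0.0825). LIN52, a subunit of the complex that represses or activates cell cycle genes, rose by 0.40 (SE 0.04, adjusted p = 0.0236, blocked 0.0563). CCNF, cyclin F, a ubiquitin ligase subunit, rose by 0.33 (SE 0.04, adjusted p = 0.0272) and also passed with the block. All of these belong to the control class, whose 10 members held none past the test.

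Among replication genes outside the members, RPA1, the large subunit of the protein that coats single-stranded DNA, rose by 0.39 (SE 0.04, adjusted p = 0.0238, blocked 0.0577). DUT, which keeps uracil out of DNA, rose by 0.48 (SE 0.04, adjusted p = 0.0162, blocked 0.0651). MCM10, a replication initiation factor, was the gene called lower. Its probe set stood at 3.66, 3.66 and 3.65 in controls and 3.30, 3.33 and 3.31 in wounds, so that each group lay close together, and the difference of -0.35 (SE 0.01) gave an adjusted p of 0.00926. It passed with the block, and a second probe set at 3.16 differed by -0.04. The call of MCM10 was lost with the mean of a gene's probe sets. In the mitosis class RAD21, a cohesin subunit, rose by 0.61 (SE 0.08, adjusted p = 0.0395, blocked 0.0674).

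A few genes that did not pass were looked up after their values were seen. AURKB, the kinase of the chromosomal passenger complex, differed by 0.97 (SE 0.17, adjusted p = 0.0754), a difference close to that of CDK1. CENPW, a centromere protein, differed by 0.90 (SE 0.17, adjusted p = 0.0818), and the RPA subunits RPA2 and RPA3 by 0.52 and 0.69 (adjusted p = 0.0748 and 0.0890). CCNB1, cyclin B1, differed by 0.56 (adjusted p = 0.116). CDK6, the partner of D cyclins, went the other way: it measured 8.45, 8.40 and 8.38 in controls and 7.17, 7.54 and 7.77 in wounds, a difference of -0.92 (SE 0.16, adjusted p = 0.0724). Its wounds lay below every control. CCND1 lay below its control in each pair on its brightest probe set, but its second was higher by 0.08 in pair 2.

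**Figure D5:**
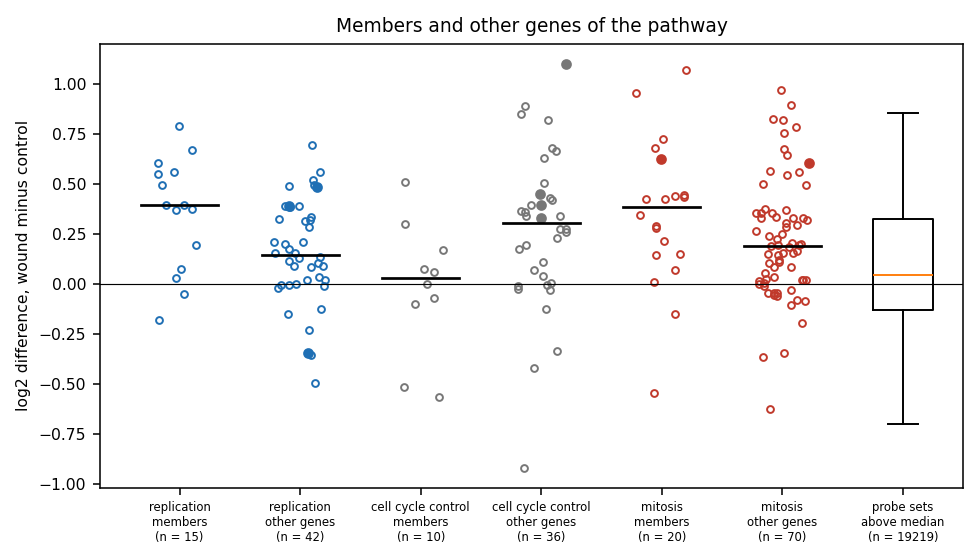
Wound minus control difference of the members and of the other genes of each class, 1 probe set a gene, with medians as bars, filled points past an adjusted p of 0.05, and random horizontal spread. The box shows the 19219 probe sets above the median level (median 0.05, quartiles -0.13 and 0.32, whiskers at the 5th and 95th percentiles), and the medians of the replication, mitosis and other control genes lie above its median.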

How the data were processed

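Values deposited by the authors are on a log2 scale, and the labels name RMA without a version. GCOS scaling, which the methods also name, gives linear signals instead. Of 38535 probe sets 96 array controls were left out. Array medians lay between 3.01 and 3.05. Genes were named from the platform annotation: 27168 probe sets have 1 symbol, 177 several (not used) and 11094 none. Wounds and controls were compared with limma 3.58.1 in R 4.3.3 (lmFit, eBayes, no block), with Benjamini-Hochberg adjustment. This takes the place of the SAM analysis (Wilcoxon statistic, permuted labels) named in the methods. Python 3.11.15 was used for tables (pandas 2.3.3, numpy 2.4.6) and for plots (matplotlib 3.10.9). The fits were tested on simulated data.

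The methods give a wound and a control from each egg but no number for it. The deviations from the group means correlated between same-numbered arrays, with r of 0.58, 0.63 and 0.45 over probe sets, so the numbers were taken as pairs. The members and gene lists were chosen with earlier results of these data known. Array values are given for members past the test, up to 5 a class with the largest difference among those whose groups do not overlap, and 2 a class with the highest mean level, and for other pathway genes past the test. Genes outside this rule are said to be named after their values were seen.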

Additional observations from a re-analysis of the deposited data

How the results depend on the processing

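NDC80 was the only call of a member, and it did not hold under many alternatives. The number of mitosis genes higher was 1, as in the comparison reported, with arrays centred on their median and with the mean of a gene's probe sets. It was 0 after quantile normalization, 0 with the replicate block that pairs arrays by number, 0 with limma's trend and robust options, 0 with a fold over 2, and between 0 and 0 with each array left out in turn. It was 2 with a filter on dim probe sets, 2 with the probe set of largest interquartile range, and 3 at an adjusted p under 0.1. The adjusted p of NDC80 was 0.119 after quantile normalization, 0.0774 with the block and 0.0657 with trend and robust. The number of replication genes higher was 2 with the filter (MCM6 and RFC2) and 1 at an adjusted p under 0.1. The filter leaves 19276 probe sets to adjust over, of which 1486 were called higher. Over all probe sets 785 were called higher in the comparison reported. This number was 121 after quantile normalization, 270 with the block and 374 with trend and robust. With an array left out it ran from 22 (without control 3) to 790 (without wound 3). The background of calls thus changed with the setting as well. The median difference of the replication genes was 0.20 with the mean of a gene's probe sets, and from 0.35 to 0.56 with each array left out in turn, the highest without control 2.

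Alternatives for the other genes of the pathway were added after seeing the data. The numbers higher and lower were 0 and 1 after quantile normalization, 16 and 2 with the filter, 3 and 1 with the block, 1 and 0 with trend and robust, 8 and 0 with the mean of a gene's probe sets, 15 and 2 at an adjusted p under 0.1, 1 and 0 with a fold over 2, and from 0 to 7 higher and from 0 to 2 lower with each array left out. The block changed no other call of a class of members. The lean of the members held less well after quantile normalization, with 30 of 45 above 0. Under the other normalization and probe set choices 36 or 37 of 45 were above 0. With each array left out in turn the number was from 32 (without wound 2) to 38 (without control 2 or wound 1). The control genes' median lay between -0.09 and 0.08. In these comparisons no called member changed sign. The causes were not tested. The number of arrays limits the precision.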
